A study of Mus musculus with 4 samples.

Results

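The costimulatory tumor necrosis factor (TNF) receptors of T cells were described in 4 RNA libraries from mouse B16 melanomas. They are 8 genes, taken by symbol from the 25239 genes of the count tables: Tnfrsf4, Tnfrsf8, Tnfrsf9, Tnfrsf14, Tnfrsf18, Tnfrsf25, Tnfrsf1b and Cd27. All 8 were present in every table and passed the minimum of 10 reads on average over the 4 libraries, as did 13357 genes in all. Over the remote and CTX libraries alone, 6 of the 8 would have passed, and Tnfrsf8 and Cd27 entered through the 2 libraries where they were high.

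B6 mice carried B16 tumors in both flanks and were treated on day 7. All 4 groups share CTX, given intraperitoneally the day before adoptive cell transfer, and tumor tissue was taken 12 days after the transfer. The TRP-1MV tumor came from mice given TRP-1 TMV cells intravenously. The MV left tumor was injected with free MV in mice that also had TRP-1 T cells intravenously, and the remote tumor is the uninjected right tumor of that group. The CTX tumor came from mice whose left tumors received PBS, with no T cells named. The column headers write MV as MYXV. The labels do not say which flank the TRP-1MV and CTX libraries came from. The labels state n = 2, but each group has 1 table with 1 column, and pooling is not stated. There is therefore no replicate spread: each interval below is a 95% interval that covers counting error only, and no p-value can be given.

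TNF receptors of this group are membrane proteins that bind trimeric ligands, mostly on antigen-presenting cells. Most of them signal through TRAF adaptor proteins to NF-kB, and they prolong the survival and division of T cells that have met antigen. Several are low on resting T cells and are induced by activation, whereas Cd27 and Tnfrsf14 are already present on naive T cells. Macrophages, dendritic cells and other leukocytes also express some of them, Tnfrsf1b in particular.

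The libraries held 14802809 reads in TRP-1MV, 12375526 in MV left, 21790759 in remote and 20811605 in CTX. A gene with 0 reads could have had up to 0.186, 0.222, 0.151 and 0.156 CPM (reads scaled to a common library size) in those libraries, in the same order. The transcripts Rn45s, Lars2 and Rpph1 took 1.62% and 1.64% of reads in TRP-1MV and MV left, against 0.164% and 0.141% in remote and CTX. The 8 melanocyte genes summed to 5424 and 5794 CPM in TRP-1MV and MV left, against 25430 and 24989 in remote and CTX, and all 8 were detected in each library. The 11 general T cell genes summed to 388 and 386 CPM in TRP-1MV and MV left, against 12.1 and 12.3 in remote and CTX. In bulk tissue, fewer cells of a type and less RNA per cell cannot be told apart.

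The 250 bases before the annotated starts (RefSeq, GRCm38.p6) are shown for 3 receptors: Tnfrsf9 and Tnfrsf8, which differed most from CTX together with Tnfrsf1b, and Tnfrsf25, whose interval included equality. Both strands were searched for the degenerate NF-kB consensus, for GGGNNNTTCC, which can overlap it, and for TGANTCA, the AP-1 site. Capitals mark the matches.
Tnfrsf9, second start, chr4:150927749-150927998, plus strand: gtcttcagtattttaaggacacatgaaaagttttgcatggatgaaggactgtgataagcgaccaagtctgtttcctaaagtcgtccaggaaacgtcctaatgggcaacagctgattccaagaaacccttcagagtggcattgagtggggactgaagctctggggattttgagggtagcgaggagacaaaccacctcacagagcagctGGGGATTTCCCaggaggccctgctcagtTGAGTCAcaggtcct
Tnfrsf8, chr4:145315165-145315414, minus strand: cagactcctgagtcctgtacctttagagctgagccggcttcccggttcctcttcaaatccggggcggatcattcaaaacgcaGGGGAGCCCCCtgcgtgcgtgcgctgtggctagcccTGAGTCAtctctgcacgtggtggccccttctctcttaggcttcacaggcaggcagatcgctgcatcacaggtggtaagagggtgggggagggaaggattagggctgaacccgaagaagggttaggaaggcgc
Tnfrsf25, second start, chr4:152116093-152116342, plus strand: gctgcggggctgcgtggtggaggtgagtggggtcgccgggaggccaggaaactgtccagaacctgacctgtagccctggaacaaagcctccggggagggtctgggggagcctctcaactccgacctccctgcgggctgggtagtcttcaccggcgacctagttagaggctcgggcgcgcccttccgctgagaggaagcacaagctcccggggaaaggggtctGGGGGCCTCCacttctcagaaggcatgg
In Tnfrsf9 the NF-kB matches lay 43 to 33 bases before the start, overlapped by a GGGNNNTTCC match, and the TGANTCA match lay 15 to 9 bases before it. In Tnfrsf8 the NF-kB matches lay 168 to 158 bases and the TGANTCA match 132 to 126 bases before the start. Tnfrsf25 had an NF-kB match 28 to 19 bases before its second start, and a GGGNNNTTCC match 218 to 209 bases before its first start, not printed. The other windows had no match to these letters, among them those of Tnfrsf1b and of the first start of Tnfrsf9. The windows printed are thus the ones that held an NF-kB match. Over the 10 windows of the 8 genes, 3 held the NF-kB consensus, 2 held GGGNNNTTCC and 2 held TGANTCA. Among 32851 mouse promoters of the same length the shares were 7.25%, 4.65% and 6.75%. A match is a description of the letters and was not tied to binding by any measurement here.

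Most of the 8 receptors were higher in both virus-treated tumors than in CTX. A gene was called higher when its CPM, scaled with TMM library factors, was at least 2 times that of the other library and the interval excluded equality. By this rule 7 of 8 receptors were higher in TRP-1MV than in CTX, against 18.5% of all genes compared, and the same 7 were higher in MV left than in CTX, against 18.1%. The median log2 ratio of the 8 was 4.37 for TRP-1MV and 4.48 for MV left, against -0.07 and -0.05 over all genes. None was lower. Both comparisons share the CTX library. No T cells are named for the CTX mice, while both virus-treated groups had TRP-1 cells. Virus and T cell transfer therefore cannot be told apart against CTX. Scaling to housekeeping genes moved the median of all genes to 0.49 and 0.51, and the calls in TRP-1MV over CTX from 2476 higher and 1559 lower to 4001 higher and 508 lower, with the same 7 receptors called.

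Markers of other leukocytes were higher in the same tumors. Of 10 macrophage and monocyte genes, 8 were higher in each virus-treated tumor than in CTX, with medians of 3.71 in TRP-1MV and 3.23 in MV left, and summed to 1395 and 956 CPM in TRP-1MV and MV left, against 98.6 and 78.1 in remote and CTX. Itgam (6.99) and Adgre1 (6.61) were high in TRP-1MV, and Mrc1 (0.74) and C1qa (0.53) were not called. Of 5 dendritic cell genes past the minimum, 4 were higher, with Itgax at 5.73 and Zbtb46, not called, at 0.62 in TRP-1MV. All 4 neutrophil genes past the minimum were higher, among them Mmp8, with 3687 and 1929 reads in TRP-1MV and MV left, against 1 and 1 in remote and CTX, while Ly6g had 3 and 1 reads in TRP-1MV and MV left, against 0 and 1 in remote and CTX. Of 10 T cell subset genes, 9 were higher, Ccr7 (9.52) and Il2ra (9.16) most and Ikzf2 (0.87), not called, least in TRP-1MV. There Il2ra had 418 CPM and Ccr7 153, against 56.4 for Cd3d, Cd3e and Cd3g together. Which cells carried Il2ra and Ccr7 was not tested. The part of each cell type in the receptor values was not tested.

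**Figure D1:**
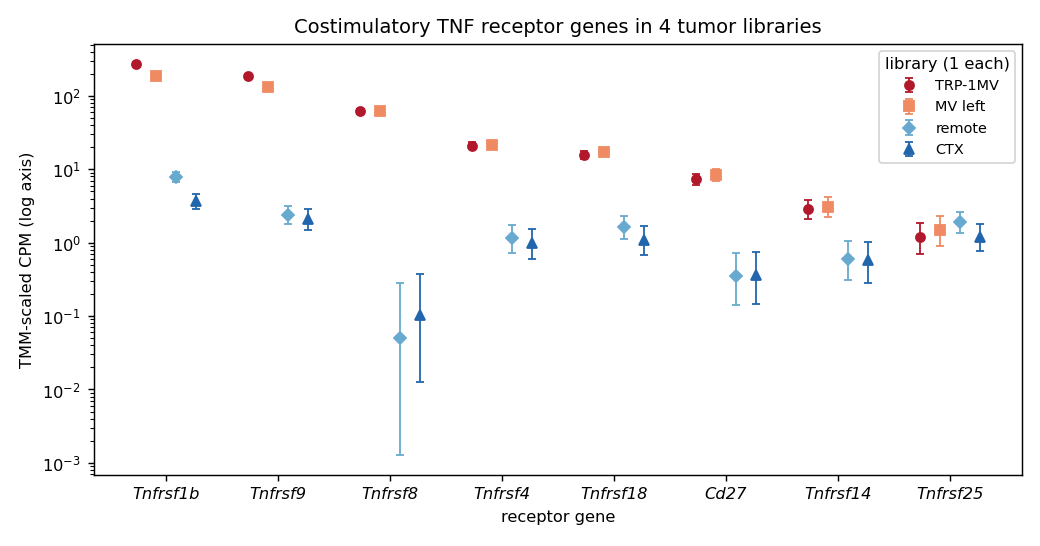
TMM-scaled CPM (log axis) of the 8 receptor genes in the TRP-1MV, MV left, remote and CTX libraries, 1 library each, with 95% counting intervals. Tnfrsf1b reached 269 and 187 CPM in TRP-1MV and MV left, against 7.84 and 3.70 in remote and CTX, while the 4 libraries overlapped for Tnfrsf25.

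Tnfrsf9 (4-1BB, CD137), a receptor induced on activated T cells, had 3056 reads in TRP-1MV, 1767 in MV left, 48 in remote and 40 in CTX. On the scaled CPM these were 190, 131, 2.41 and 2.09. The first 2 libraries were high and the last 2 low, with no overlap of their intervals. TRP-1MV was 91-fold above CTX (log2 ratio 6.51, interval 6.06 to 7.00), and MV left 62.7-fold (5.97, 5.52 to 6.46).

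Tnfrsf1b (TNFR2), the TNF receptor of activated and regulatory T cells and of myeloid cells, had 4328 reads in TRP-1MV, 2529 in MV left, 156 in remote and 71 in CTX. It was the most abundant receptor by reads in all 4 libraries. TRP-1MV was 72.6-fold above CTX (log2 ratio 6.18, 5.84 to 6.54) and MV left 50.5-fold (5.66, 5.32 to 6.02).

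Tnfrsf8 (CD30), found on activated lymphocytes, had 994 reads in TRP-1MV and 848 in MV left, against 1 in remote and 2 in CTX. It was nearly undetected in remote and CTX. Its log2 ratios to CTX were 9.21 (7.35 to 12.26) and 9.23 (7.38 to 12.28), and rest on those 2 reads.

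Tnfrsf4 (OX40), a receptor of activated CD4 T cells, had 339 reads in TRP-1MV and 288 in MV left, against 23 in remote and 19 in CTX. It was 21.2-fold above CTX in TRP-1MV (log2 ratio 4.41, 3.74 to 5.16) and 21.5-fold in MV left (4.43, 3.76 to 5.18). Tnfrsf18 (GITR), abundant on regulatory T cells, had 252 and 234 reads in TRP-1MV and MV left, against 33 and 21 in remote and CTX. Both genes had 2 high and 2 low libraries without overlap. Tnfrsf18 was 14.3-fold above CTX in TRP-1MV (log2 ratio 3.84, 3.19 to 4.55) and 15.8-fold in MV left (3.98, 3.34 to 4.70). The annotation places the antisense gene Gm16008 over 414 exon bases of Tnfrsf18. The strand setting of the counting is not given, so reads of the pair cannot be told apart.

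Cd27, a receptor already present on naive T cells, had 118 reads in TRP-1MV and 114 in MV left, against 7 in remote and 7 in CTX. Tnfrsf14 (HVEM), which binds ligands of the TNF family and the inhibitory receptor Btla, had 46 and 42 reads in TRP-1MV and MV left, against 12 and 11 in remote and CTX. These were the lower counts of the 7 receptors called. The log2 ratios to CTX in TRP-1MV and MV left were 4.33 (3.24 to 5.67) and 4.53 (3.44 to 5.88) for Cd27, and 2.32 (1.35 to 3.41) and 2.44 (1.46 to 3.54) for Tnfrsf14.

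Tnfrsf25 (DR3), the receptor for the ligand TL1A, was the exception, with 19 reads in TRP-1MV, 20 in MV left, 38 in remote and 23 in CTX. Its log2 ratio to CTX was -0.02 (-0.98 to 0.92) in TRP-1MV and 0.30 (-0.64 to 1.23) in MV left. Differences smaller than about 2-fold were not detectable at this depth, and the interval in MV left reached 2.35-fold. Scaling changed the sign in TRP-1MV, to 0.22 with total counts and 0.53 with housekeeping genes.

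**Figure D2:**
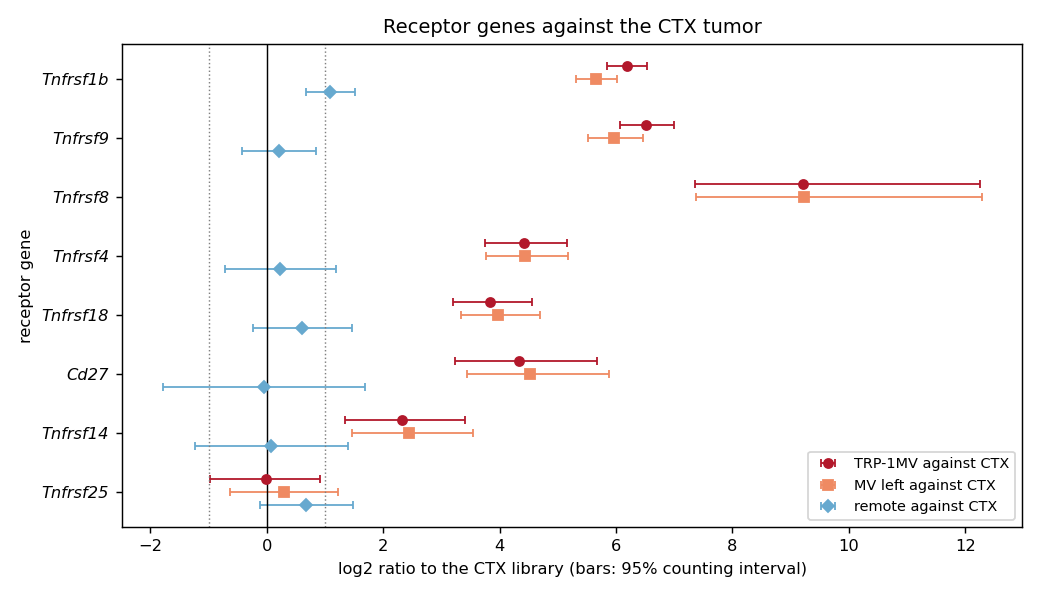
log2 ratio of the TRP-1MV, MV left and remote libraries to the CTX library for the 8 receptor genes, with 95% counting intervals. The virus-treated tumors lie above equality for 7 receptors and span it for Tnfrsf25, and the remote tumor lies above it for Tnfrsf1b alone.

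For most receptors the remote tumor was not told apart from CTX within counting error. Tnfrsf1b was the 1 receptor called higher in remote than in CTX, against 0.457% of all genes, with 7.84 CPM in remote and 3.70 in CTX (log2 ratio 1.08, 0.67 to 1.51). When all libraries were thinned to the smallest total, its log2 ratio was 0.94 and the call was lost. Tnfrsf4, Tnfrsf9, Tnfrsf14, Tnfrsf18, Tnfrsf25 and Cd27 had log2 ratios from -0.05 to 0.67 with intervals that included equality. The intervals reached 2.26-fold for Tnfrsf4, 2.63-fold for Tnfrsf14, 2.75-fold for Tnfrsf18, 2.8-fold for Tnfrsf25 and 3.22-fold for Cd27. For these receptors a 2-fold difference was therefore not excluded, while the interval of Tnfrsf9 ended at 1.81-fold. Tnfrsf8 had too few reads for a ratio. In all, 2 other pathway genes were called in remote: Tnf, with 143 reads in remote and 24 in CTX (2.52, 1.89 to 3.21), and the adaptor Traf1, with 31 reads in remote and 11 in CTX (1.44, 0.41 to 2.58). Beside them, 2 of 10 macrophage and monocyte genes were called higher, Cd14 (1.61) and Adgre1 (1.09), as were the dendritic cell gene Itgax (1.06, 0.22 to 1.95) and the neutrophil gene Csf3r (1.13, 0.06 to 2.30). None of the 11 T cell genes was. Their part in the Tnfrsf1b value was not tested. Set against remote instead of CTX, the same 7 receptors were higher in TRP-1MV (18.8% of all genes) and in MV left (18.6%), with medians of 4.28 and 4.39.

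The 2 virus-treated tumors differed in Tnfrsf9 and Tnfrsf1b. No receptor was called higher in TRP-1MV than in MV left, against 0.562% of all genes, and none was called lower, against 29 of the 13357 genes. Tnfrsf9 was 1.45-fold higher in TRP-1MV (log2 ratio 0.54, 0.45 to 0.62) and Tnfrsf1b 1.44-fold (0.52, 0.45 to 0.59). These 2 of 8 receptors had intervals wholly above equality, as did 11% of all genes. The other 6 had log2 ratios from -0.33 to -0.02 with intervals that included equality. The T cell genes had a median of 0.00. Among the T cell subset genes, Cd8a (-0.22, -0.53 to 0.08) and Cd8b1 (-0.03, -0.32 to 0.27) had intervals that included equality, and Ccr7 was at 0.56 (0.46 to 0.65). The macrophage and monocyte genes had a median of 0.47 and summed to 1395 CPM in TRP-1MV and 956 in MV left. Adgre1 (0.60), Itgam (0.58) and Csf1r (0.68) were among the higher ones and Ccr2 was at -0.59. The dendritic cell genes summed to 256 CPM in TRP-1MV and 171 in MV left, with a median of -0.04. Fscn1 (0.70) and Itgax (0.65) were above equality, and Flt3 (-0.53), Zbtb46 (-0.18) and Batf3 (-0.04) had intervals that included it. The neutrophil genes summed to 250 CPM in TRP-1MV and 157 in MV left, of which Mmp8 alone gave 229 and 143. Their median was 0.54, with S100a9 called higher (1.20) and Mmp8 at 0.68. S100a8 (0.39, -0.15 to 0.94) and Csf3r (0.26, -0.16 to 0.70) had intervals that included equality. Cxcr2, below the minimum, had 7 reads in TRP-1MV and 11 in MV left. The part of these cells in the 2 receptor differences was not tested.

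**Figure D3:**
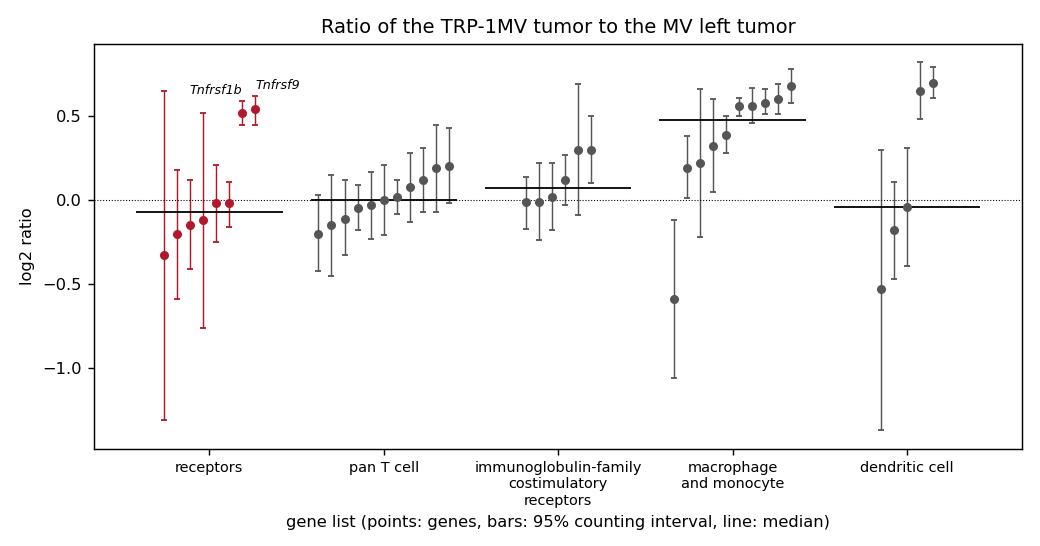
log2 ratio of the TRP-1MV to the MV left library for single genes of 5 lists, with 95% counting intervals and the list median as a line. Tnfrsf9 at 0.54 and Tnfrsf1b at 0.52 lie above the other 6 receptors, the T cell genes centre on 0.00 and the macrophage and monocyte genes on 0.47.

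Set against the reads of Cd3d, Cd3e and Cd3g, the receptors fell into separate patterns. The 3 CD3 genes, subunits of the T cell receptor complex, had 908 reads in TRP-1MV, 777 in MV left, 17 in remote and 17 in CTX, so these ratios rest on 17 reads in the low libraries. Tnfrsf8 had 109 reads per 100 CD3 reads in TRP-1MV and 109 in MV left, against 5.88 in remote and 11.8 in CTX. It was the 1 receptor above CTX on this scale (log2 ratio 3.22, 1.14 to 6.38, in TRP-1MV). Tnfrsf9 had 337 and 227 per 100 in TRP-1MV and MV left, against 282 and 235 in remote and CTX. Tnfrsf1b had 477 and 325 in TRP-1MV and MV left, against 918 and 418 in remote and CTX. In TRP-1MV over CTX their intervals included equality, at 0.52 (-0.40 to 1.38) and 0.19 (-0.67 to 0.98). Tnfrsf4 (-1.58), Tnfrsf14 (-3.67), Tnfrsf18 (-2.15), Tnfrsf25 (-6.01) and Cd27 (-1.66) lay below CTX relative to CD3 in TRP-1MV. The choice of T cell genes moved these values. With all 11 T cell genes, 55.1% of whose CTX reads came from Lck, Tnfrsf9 was at 1.53 (1.03 to 2.05), Tnfrsf1b at 1.20 (0.81 to 1.61), Tnfrsf4 at -0.57 (-1.27 to 0.20) and Cd27 at -0.65 (-1.76 to 0.71). In MV left the CD3 ratio of Cd27 also included equality, at -1.49 (-2.87 to 0.06). Between TRP-1MV and MV left, Tnfrsf9 (0.57, 0.40 to 0.73) and Tnfrsf1b (0.55, 0.39 to 0.71) were higher per CD3 read.

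Per kilobase of exon, the scaled level of Tnfrsf1b was 70.4 CPM in TRP-1MV and 49 in MV left, and that of Tnfrsf9 69.7 and 48, within each other's counting intervals. Tnfrsf8 (17.8 and 18.1), Tnfrsf4 (15.4 and 15.6), Tnfrsf18 (10.3 and 11.4), Cd27 (3.15 and 3.62), Tnfrsf14 (1.99 and 2.16) and Tnfrsf25 (0.518 and 0.65) followed in both tumors. Among these neighbours in TRP-1MV, the intervals of Tnfrsf8 (16.7 to 19) and Tnfrsf4 (13.8 to 17.2) overlapped, as did those of Cd27 (2.6 to 3.77) and Tnfrsf14 (1.45 to 2.65). In CTX every receptor was below 1 CPM per kb, with Tnfrsf1b highest at 0.97 and Tnfrsf8 lowest at 0.0302. Without length correction, Tnfrsf1b and Tnfrsf9 together took 80.7% of the receptors' reads in TRP-1MV, 73.5% in MV left, 64.2% in remote and 57.2% in CTX. By reads per kb, Tnfrsf1b and Tnfrsf9 took 37.2% and 36.8% in TRP-1MV and 33% and 32.3% in MV left. In remote they took 32.6% and 14.1%, and in CTX 22.6% and 17.8%. Tnfrsf25 took 0.274% of the reads per kb in TRP-1MV and 0.437% in MV left, against 13.3% in remote and 12.3% in CTX.

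**Figure D4:**
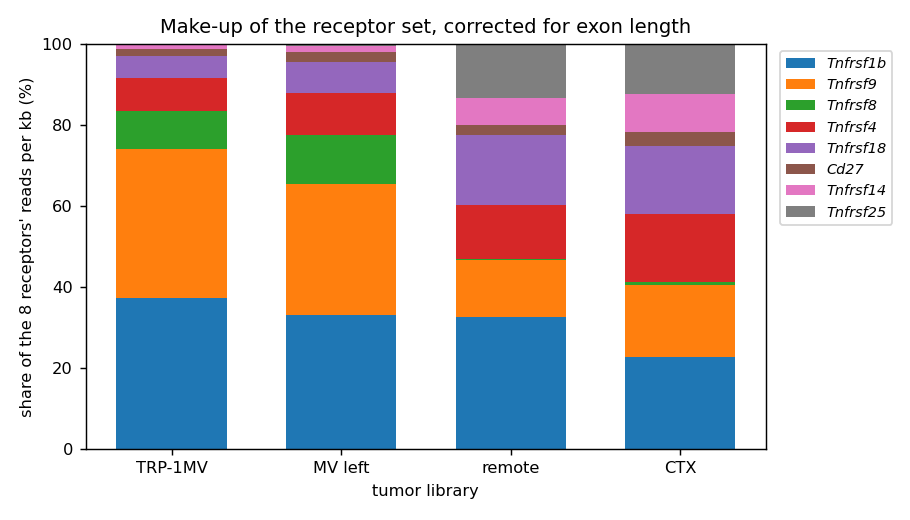
Share of each receptor in the summed reads per kb of exon of the 8 receptors (%), for the TRP-1MV, MV left, remote and CTX libraries. Tnfrsf25 takes 0.274% and 0.437% in the virus-treated tumors, against 13.3% and 12.3% in remote and CTX.

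Ligands and binding partners of the receptors were mostly higher as well. Of 12 listed, 10 passed the minimum and 9 were higher in TRP-1MV and in MV left than in CTX, with medians of 5.34 and 5.47. Tnfsf4, the OX40 ligand, had 131 and 126 reads in TRP-1MV and MV left, against 0 and 0 in remote and CTX. With 0 reads set to 3, its log2 ratios to CTX were 5.70 and 5.90, with lower limits of 5.38 and 5.58. Tnfsf8, the CD30 ligand, had 126 and 94 reads in TRP-1MV and MV left, against 0 and 2 in remote and CTX (log2 ratios to CTX 6.23 and 6.06). Tnfsf14, the HVEM ligand LIGHT, had 38 and 27 reads in TRP-1MV and MV left, against 2 and 0 in remote and CTX. Tnfsf9, the 4-1BB ligand, did not follow its receptor: it had 244 reads in TRP-1MV and 177 in MV left, against 450 in remote and 365 in CTX. Its log2 ratio to CTX was -0.33 (-0.57 to -0.09) and -0.54 (-0.81 to -0.28), short of the 2-fold rule. Both are smaller than the shift that housekeeping scaling gives to all genes, so their sign depends on the scaling. Tnfsf15, the ligand of Tnfrsf25, had 241 and 132 reads in TRP-1MV and MV left, against 3 and 2 in remote and CTX (7.16 and 6.55), beside a receptor whose interval included equality. Tnf (3.73 and 3.97), Lta (7.76 and 7.80) and Ltb (6.35 and 6.56), and the HVEM partners Btla (4.98 and 5.05) and Cd160 (3.31 and 3.38), were higher in both. Ltb was listed, and is in the counts and medians above, although its receptor Ltbr is not among the 8. Cd70, the Cd27 ligand, had 6 and 7 reads and Tnfsf18, the GITR ligand, 5 and 1 in TRP-1MV and MV left, both with 0 reads in remote and in CTX, and were below the minimum.

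**Figure D5:**
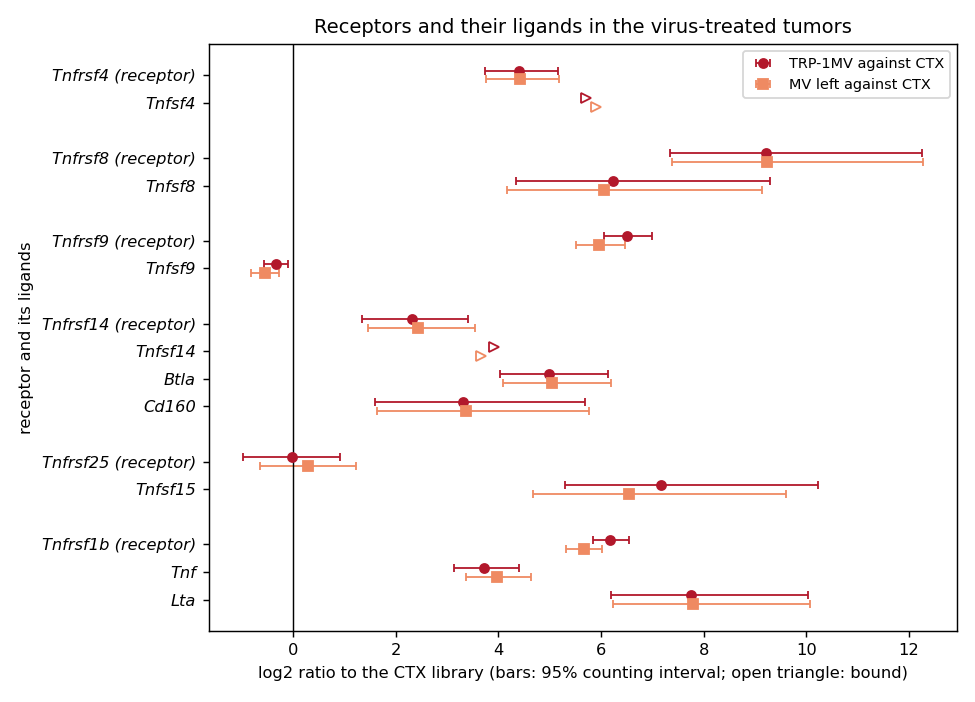
log2 ratio to the CTX library of 6 receptors and their ligands in the TRP-1MV and MV left libraries, with 95% counting intervals and open triangles for bounds against 0 reads. With TMM scaling, on which its sign depends, Tnfsf9 lies at -0.33 and -0.54 while its receptor Tnfrsf9 lies at 6.51 and 5.97.

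Other members of the TNF receptor superfamily were more mixed. Of 18 past the minimum, 12 were higher in TRP-1MV and 11 in MV left than in CTX, with medians of 2.21 and 2.23. Over all genes compared, 18.5% and 18.1% were higher. The death receptor Fas (7.90 and 7.25), Tnfrsf26 (6.77 and 6.66) and the B cell receptor for BAFF, Tnfrsf13c (6.54 and 6.59), were among the higher ratios, which rest on 1, 2 and 1 reads in CTX. Their intervals in TRP-1MV, 5.41 to 13.21, 4.89 to 9.82 and 4.02 to 11.86, overlapped that of Tnfrsf13b, 4.98 to 7.06 at a ratio of 5.92. Tnfrsf19 was called lower (-1.20 and -1.12), a call lost with total-count or housekeeping scaling, and Ngfr (-1.07 and -1.14) and Ltbr (-0.81 and -0.77) were not called. Tnfrsf1a, the broadly expressed partner of Tnfrsf1b in binding TNF, was at 0.02 and -0.06. The 6 B cell genes were also higher, with 68 and 65.2 CPM in TRP-1MV and MV left, against 1 and 1.3 in remote and CTX. Of 17 signalling genes, 6 were higher in each tumor, with medians of 0.40 and 0.48: the adaptors Traf1 (6.40 and 6.02) and Traf5 (1.79 and 1.63), the ubiquitin ligase Birc3 (3.80 and 3.36), and Map3k14 (3.29 and 3.14), Relb (2.50 and 2.40) and Nfkb2 (2.04 and 1.99) of the noncanonical NF-kB pathway. The adaptors Traf2 (0.23), Traf3 (0.37), Traf4 (-0.55) and Traf6 (0.15) were not called in TRP-1MV, nor were Birc2 (0.90), Tradd (-0.45), Ripk1 (0.32), Siva1 (-0.16), Tank (0.47), Chuk (0.40) and Ikbkb (0.36). The 6 compared costimulatory receptors of the immunoglobulin family and its relatives were all higher, with a median of 6.12. Ratios in TRP-1MV were 7.48 for Cd28, 6.98 for Icos, 6.34 for Slamf6, 5.89 for Cd2 and 4.98 for Ly9. Slamf1, with 0 reads in CTX set to 3, was at 5.78 with a lower limit of 5.46.

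Of the receptors, 7 lie on mm10 chromosome 4 between 145213463 and 156028895, a span of 10.8 Mb, and Cd27 lies on chromosome 6 (125232622 to 125237010). Tnfrsf4 (156013843 to 156016612) and Tnfrsf18 (156026164 to 156028895) are 9552 bases apart. The 123 other compared genes of the span had a median log2 ratio to CTX of -0.16 in TRP-1MV and -0.19 in MV left. Of them 19 and 13 were higher and 15 and 13 lower, beside 18.5% and 18.1% of all genes compared that were higher. Tnfrsf1b and Tnfrsf8, both called higher, are 20267 bases apart. Among close neighbours outside the receptor set, Sdf4, 233 bases from Tnfrsf4, was at 0.38 and 0.30, and Park7, 125 bases from Tnfrsf9, at -0.94 and -0.91. Tapbpl, beside Cd27, was higher at 1.33 and 1.25.

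By distance between centred log2 profiles over the 4 libraries, a description over 4 points that share their depth and have 0.25 CPM added, Cd27 was nearest to Cd40lg (0.023), Celf5 (0.071) and Wnt9a (0.123). Tnfrsf4 was nearest to Rhof (0.077) and Il21 (0.136), and Tnfrsf18 to Ctla2b (0.134), Pdcd1 (0.134) and S1pr1 (0.158). Tnfrsf9 was nearest to Slc6a12 (0.061), Vopp1 (0.081) and Cd86 (0.150), and Tnfrsf1b to Ptger4 (0.062), Traf1 (0.221) and Rac2 (0.259). Tnfrsf8 had no profile as close, with Slc7a2 (0.462), Pou2af1 (0.488) and Ccl17 (0.523). Tnfrsf14 was nearest to Eno2 (0.057), Ppfia3 (0.057) and Ppp1r10 (0.058), and Tnfrsf25 to Myl9 (0.075), Rnf208 (0.103) and Kbtbd3 (0.131). Cd40lg, Il21, Pou2af1 and Ccl17 had 0 reads in remote and in CTX, so the low part of their profiles and their distances are set by the added 0.25 CPM. Tnfrsf8 itself (0.0502 and 0.104 CPM in remote and CTX), Slc6a12, Ctla2b and Pdcd1 were also below 0.25 CPM in both. The added value therefore weighs on their distances too. Among the receptors the closest pair was Tnfrsf4 and Cd27 (0.344), and Tnfrsf9 and Tnfrsf1b were 0.899 apart.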

How the data were processed

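RNA of B16 tumor tissue was sequenced in 4 libraries, 1 per group, with groups taken from the sample titles. The authors deposited raw read counts per gene symbol, made with HISAT2 and featureCounts on mm10, per the submitters' processing notes. For annotation, strand setting and multi-mapping reads, nothing is given in the sources used here. The source label names a melanoma cell line while the extraction protocol names tumor tissue. Counts were scaled with TMM (edgeR 4.0.16, R 4.3.3) over all 4 libraries. Genes with a mean of at least 10 reads were compared in all 6 pairs by the ratio of scaled CPM with an exact conditional binomial (Clopper-Pearson) 95% interval (scipy 1.17.1, Python 3.11.15). A library with 0 reads was set to 3, and no ratio was given where both had 3 reads or fewer. The ratio to CD3 reads used the exact conditional odds ratio. No test across replicates was possible. Exon lengths and positions came from GENCODE M21 on the same build (24323 symbols matched), and promoters from RefSeq. Profiles used log2(CPM + 0.25), leaving out unnamed gene models, pseudogenes and receptor segments. The interval code was tested on simulated data. Members, gene lists, promoter motifs and naming rule were chosen with earlier results of these data known. Named genes were all receptors, ligands and signalling genes, examples from the extremes of the other lists (for marker lists fewer than the 3 highest and 3 lowest that the rule gives), and the 3 nearest profiles per receptor, of which 1 is not reported here. Alternatives covered scaling, with DESeq2 1.42.0 size factors among them, count minimum, call rule, depth, floor, T cell denominator and gene length.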

Additional observations from a re-analysis of the deposited data

How the results depend on the processing

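No paired analysis was possible because no group had more than 1 library, and for the same reason no replicate could be left out. The 7 receptors called higher in both virus-treated tumors, against CTX and against remote, kept their calls under each scaling, call rule, thinning and floor. With a mean of at least 50 reads, Tnfrsf14 and Tnfrsf25 were not compared, and the 6 left were called. The 1 receptor higher in remote than in CTX, Tnfrsf1b, became 0 with a ratio of at least 4, with an interval excluding a ratio of 2, and after thinning. The pathway genes higher in remote numbered 1 in place of 2 under the first pair of these rules. The 1 pathway gene lower in each virus-treated tumor, Tnfrsf19, became 0 against CTX and remote under total counts, housekeeping scaling, a ratio of at least 4 and an interval excluding a ratio of 2. With no minimum count, 2 pathway genes were lower in TRP-1MV than in MV left, against 0. Genes higher in TRP-1MV than in CTX numbered 2476, against 4001 with housekeeping scaling, 1497 with a ratio of at least 4 and 1575 with a mean of at least 50 reads. The receptor median in MV left over remote was 5.01 with housekeeping scaling, against 4.39. Relative to T cell genes it was -0.60 with 11 genes, against -1.69 with CD3. By reads per kb, the share of Tnfrsf1b was 37.2% in TRP-1MV, 33.0% in MV left, 32.6% in remote and 22.6% in CTX, against 47.3%, 43.3%, 49.1% and 36.6% by reads. With the longest transcript as length, Tnfrsf9 replaced Tnfrsf1b as the highest level per kb, at 89.71 in TRP-1MV and 61.82 in MV left, against 70.38 and 49.02. Of 487 recomputed single-gene values, 443 stayed within their counting interval and 44 left it. Among the receptors' ratios between libraries, 0 called values changed sign. The check of sign did not cover shares or ratios to T cell genes, and some of the latter did change sign. With 11 T cell genes in place of CD3, Tnfrsf1b moved from -0.95 to 0.09 in TRP-1MV over remote. Tnfrsf9 moved from -0.31 to 0.76 in MV left over remote. The cause of these shifts was not tested beyond what each setting changes by construction. Depth limits Tnfrsf8, Tnfrsf14, Tnfrsf25, Cd27, Fas, Tnfrsf26, Tnfrsf13c and every ratio to CD3 in remote and CTX.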
